A study of Mus musculus with 6 samples.

Results

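The nuclear genes that encode subunits of the respiratory complexes II, III, IV and V (succinate dehydrogenase, cytochrome bc1, cytochrome c oxidase and ATP synthase) were followed in inguinal subcutaneous white adipose tissue (IngWAT) of mice with and without *Hdac3* in adipocytes. They were chosen by symbol in the GENCODE annotation of GRCm38: protein-coding genes named *Sdha* to *Sdhd*, Uqcr, Cox4 to Cox8 or Atp5, with at least 10 counts summed over the samples. Of 46517 genes in the files, 47 carried such a symbol. *Cox7a1* and *Cox8b*, isoforms used as brown fat markers, were set aside, *Cox7b2* was listed at 0 counts and *Cox8c* had 1 count in all. The remaining 43 genes comprised 4 of complex II, 8 of complex III, 14 of complex IV and 17 of complex V. The symbol alone assigned a gene to a complex, and whether each product is part of the assembled complex was not checked. RNA-seq of polyadenylated RNA was available from 3 floxed and 3 H3atKO samples, each a pool of RNA from 2 to 3 mice of 1 genotype. Both groups were C57Bl6 mice of 5 to 9 months that carried floxed *Hdac3* and ate chow, and H3atKO mice also carried Adipoq-cre, which deletes the gene in cells that express adiponectin. Vessels, immune cells and fibroblasts in the tissue therefore keep *Hdac3*, and a difference in RNA per cell cannot be told apart from a difference in the number of cells of a type. The labels number the pools within a group and do not say whether they came from separate litters or cohorts, so the p-values measure the spread between these pools.

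Complex II oxidises succinate in the citric acid cycle and passes the electrons to ubiquinone. Complex III hands electrons from ubiquinol to cytochrome c, complex IV passes them from cytochrome c to oxygen, and complex V uses the resulting proton gradient to make ATP. All subunits of complex II are encoded in the nucleus, whereas complexes III, IV and V are assembled from nuclear subunits and a few subunits of the mitochondrial genome. White adipocytes hold few mitochondria, and brown and beige adipocytes, which burn fuel for heat, hold many.

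Reads assigned to genes numbered 23865507 to 35200685 per sample. *Hdac3* had 3139, 3339 and 2709 counts in the floxed samples and 666, 413 and 204 in the H3atKO samples, a log2 fold change of -1.83 (limma voom, adjusted p = 0.021). The libraries differed between genotypes in further ways. Genes of the mitochondrial genome took 6.92% to 12.9% of the gene counts in floxed and 26.9% to 35.3% in H3atKO samples, and reads that aligned to more than 1 place made up 28.3% to 35.2% and 43.8% to 45.5% of all alignments tallied. Across genes, the Spearman correlation of transcript GC content with how far a sample lay above or below the average sample was 0.808, 0.623 and 0.058 in floxed replicates 1, 2 and 3 and -0.452, -0.517 and -0.720 in the H3atKO samples. The 7 white adipocyte markers were abundant, summing to 23802 to 35531 cpm in floxed and 36397 to 77199 cpm in H3atKO samples, but 1 of them, Lpl, was called (higher) and the sums overlapped without it, at 13362 to 27694 and 15334 to 26482 cpm. Over all genes tested, 9.42% were called higher and 7.07% lower. Endothelial markers summed to 621 to 908 cpm in floxed and 429 to 571 cpm in H3atKO samples, with 2 of 5 called lower. Macrophage markers summed to 435 to 2305 and 361 to 642 cpm (2 of 7 lower) and fibroblast and progenitor markers to 1857 to 8088 and 1319 to 2135 cpm (1 of 6 lower), and floxed replicate 3 held the highest sum in both lists. Lymphocyte markers (47.7 to 361 and 76.9 to 577 cpm) had none called, and 7 mammary epithelial markers summed to at most 4.55 cpm. The part of these differences in the results that follow was not tested beyond the GC correction given with them.

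Among the 43 subunit genes, 12 were called higher and 0 lower in H3atKO than in floxed IngWAT (limma voom, adjusted p under 0.05), beside 9.42% and 7.07% of the 14967 genes tested. The 12 were spread over every complex: *Sdha* and *Sdhd* of complex II, *Uqcrb*, *Uqcrfs1* and *Uqcrc2* of complex III, *Cox5a*, *Cox6c* and *Cox7b* of complex IV, and *Atp5f1*, *Atp5g3*, *Atp5j* and *Atp5c1* of complex V. Neighbouring subunits of the same complexes, such as *Uqcr11*, *Cox4i1* and *Atp5d*, had log2 values as low as -3.99, -1.999 and -2.83. The 3 H3atKO samples all lay above the 3 floxed samples for 18 members and all below for 7, with 23.1% and 28.6% of all genes tested doing so, and the groups overlapped for the other 18. All 43 members passed the filter of 1 cpm (counts relative to library size) in any sample, and *Cox4i2*, *Cox6a2* and *Cox6b2* passed it through floxed samples alone. A lower value was favoured in these 3 by the filter. Among the other 40 members, the H3atKO samples lay all above for 18 and all below for 5.

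The median log2 fold change was 0.53 in complex II and 0.67 in complex V, against -0.09 over all genes, and both medians turned negative, to -0.33 and -0.18, where libraries were scaled by their size alone. It was -0.25 in complex III and -0.59 in complex IV, and both turned positive, to 0.22 and 0.09, after the values were corrected for transcript GC content. Without the 3 rare isoforms that passed the filter through floxed samples alone, the median of the other 11 complex IV members was -0.17, or 0.45 with the GC correction. Scaling by library size alone moved the median of all genes by -0.85 on the log2 scale. It left 3 members (*Uqcrb*, *Cox5a* and *Atp5f1*) called higher and 14 lower, beside 2.04% and 37.9% of all genes. The GC correction moved that median by 0.12 and called 12 members higher and 0 lower, beside 5.59% and 3.1% of all genes. With the replicate number as a block, 17 members were called higher and 11 lower, beside 24.8% and 28.7%, and with block and GC correction together 14 were higher and 2 lower, beside 13.1% and 9.71%. The pairing in the block was chosen from these data and is not given by the labels, so calls with it are no independent support. On the uncorrected values without the block, edgeR's quasi-likelihood test called 15 higher and 3 lower, beside 12.8% and 18.4%, DESeq2 17 and 6, beside 19.6% and 23.2%, and limma with sample weights 17 and 8, beside 26.7% and 29.7%. Without the 3 rare isoforms the lower calls numbered 9 with the block, 2 with edgeR, 4 with DESeq2, 6 with sample weights and 11 with library sizes alone. *Sdha*, *Sdhd*, *Uqcrb*, *Uqcrfs1*, *Cox6c*, *Atp5c1*, *Atp5g3* and *Atp5j* were called higher in 4 limma fits: the first, with the block, with the GC correction and with both. These fits share the same pools and the TMM scaling. With library sizes alone, *Uqcrb* was the only gene of these 8 called higher.

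**Figure D1:**
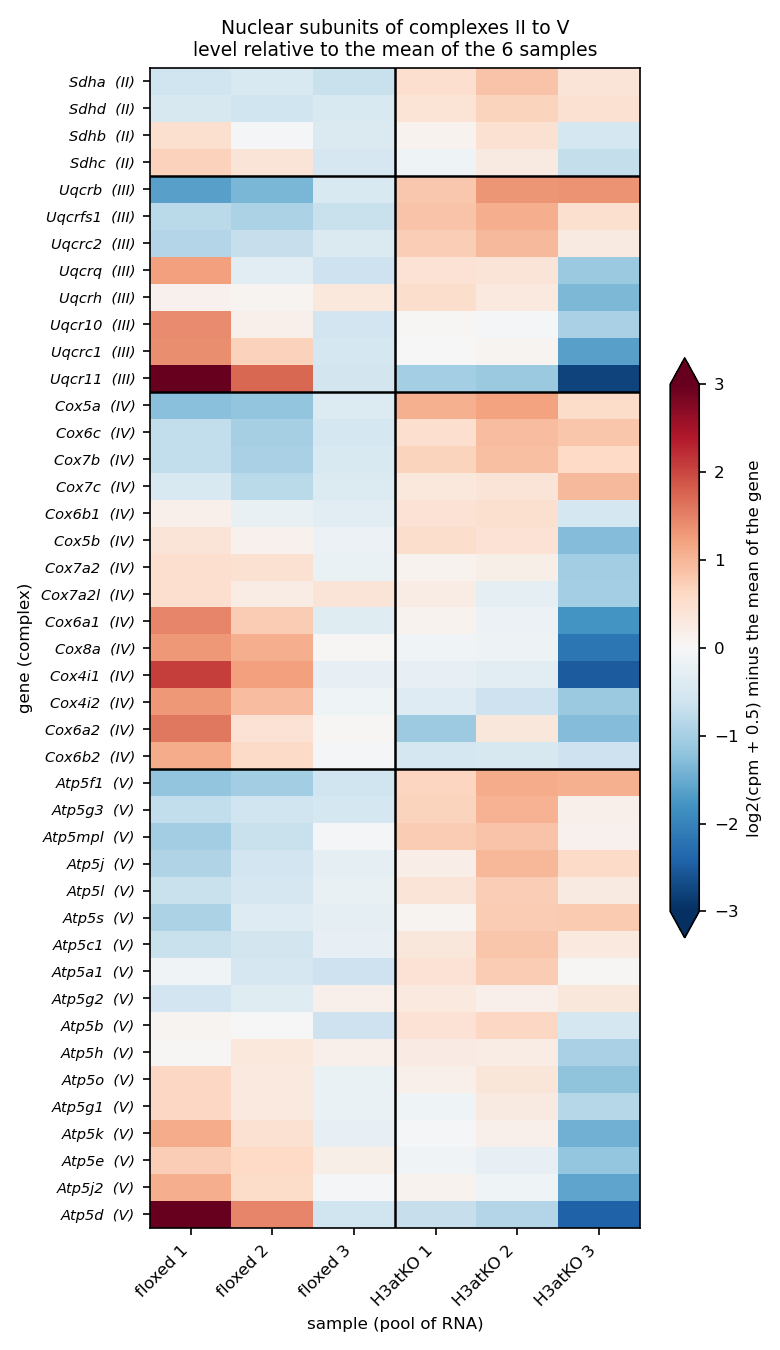
Heat map of the 43 members (rows, grouped by complex, complex in parentheses) in the 6 samples (columns). Colour gives log2(cpm + 0.5) minus the mean of the gene over the 6 samples, red above and blue below. Within complexes III, IV and V, rows that are red in all H3atKO samples, such as Uqcrb, Cox5a and Atp5f1, lie beside rows that are darkest in floxed replicate 1 and lowest in H3atKO replicate 3, such as Uqcr11, Cox4i1 and Atp5d.

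The calls depended on single pools. Members called higher numbered 2 without floxed replicate 1, 0 without floxed replicate 2 and 16 without floxed replicate 3, beside 1.01%, 0.00673% and 18.5% of all genes. They numbered 3, 3 and 1 without H3atKO replicates 1, 2 and 3, beside 1.34%, 2.64% and 0.584% of all genes. Leaving out floxed replicate 3 also gave 9 lower calls, beside 25.9%, and no other omission gave any among the members, beside at most 0.93% of all genes. *Uqcrb* and *Atp5f1* were called in 4 of the 6 fits that left out 1 sample, *Uqcrfs1* in 3 and *Cox6c* in 2. *Sdha*, *Sdhd* and *Atp5g3* were each called in 1 of them. The summed level of all 43 members was 5754, 5052 and 4517 cpm in the floxed samples and 8608, 10512 and 6831 cpm in the H3atKO samples after TMM scaling. The groups did not overlap on that scale. In cpm without TMM scaling the sums were 7445, 6936 and 6146 against 7921, 7092 and 4528, and the groups overlapped. With the genes of the mitochondrial genome left out of the total they were 7999, 7507 and 7054 against 10831, 10712 and 6997, and H3atKO replicate 3 fell below every floxed sample.

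In complex II, the catalytic flavoprotein *Sdha* and the small membrane anchor *Sdhd* were higher in H3atKO samples, and the iron-sulfur subunit *Sdhb* and the large anchor *Sdhc* were not called. *Sdha* was at 442, 487 and 422 cpm in floxed and 949, 1224 and 873 cpm in H3atKO samples. *Sdhd* was at 104, 96.0 and 107 cpm against 194, 234 and 200 cpm. After TMM scaling the lowest H3atKO sample of both genes lay well above the highest floxed sample. The log2 fold changes were 1.16 ± 0.24 (SE) for *Sdha* and 1.03 ± 0.21 (SE) for *Sdhd*, each with a limma adjusted p of 0.028. With library sizes alone they were 0.31 and 0.18, and neither was called (limma adjusted p = 0.36 and 0.58). *Sdhb* averaged 73.9 ± 23.9 cpm in floxed and 74.8 ± 24.3 cpm in H3atKO samples (SD, n = 3 each), with overlapping groups and a log2 value of 0.02 ± 0.35 (SE, limma adjusted p = 0.97). After GC correction that value was 0.97 and was called (limma adjusted p = 0.037). *Sdhc* was at 87.8, 70.9 and 38.0 cpm against 49.4, 65.7 and 32.6 cpm, with a log2 value of -0.37 ± 0.40 (SE, limma adjusted p = 0.49). The 4 subunits are present in equal number in the complex. The ratio of *Sdha* to *Sdhc* counts was nonetheless 5.04, 6.87 and 11.1 in the floxed samples and 19.2, 18.6 and 26.8 in the H3atKO samples.

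In complex III, 3 of 8 members were called higher in H3atKO samples and 0 lower, beside 9.42% and 7.07% of all genes tested. The rest lay between log2 values of -0.16 and -3.99. *Uqcrb*, which binds near the ubiquinone site, was at 77.2, 91.9 and 173 cpm in floxed and 418, 595 and 605 cpm in H3atKO samples, a log2 fold change of 2.31 ± 0.35 (SE, limma adjusted p = 0.016). *Uqcrfs1*, the Rieske iron-sulfur protein, went from 96.2, 87.4 and 106 cpm to 304, 357 and 236 cpm. Its log2 fold change was 1.62 ± 0.24 (SE, limma adjusted p = 0.015). The core protein *Uqcrc2* was at 174, 199 and 238 cpm against 538, 627 and 389 cpm (log2 1.33 ± 0.27 SE, limma adjusted p = 0.027). In each of these genes every H3atKO sample lay above every floxed sample after TMM scaling. With library sizes alone *Uqcrb* stayed called (log2 1.46, limma adjusted p = 0.014). *Uqcrfs1* (0.77, limma adjusted p = 0.063) and *Uqcrc2* (0.48, limma adjusted p = 0.25) were then not called. Corrected for GC content, the log2 value was 1.298 for *Uqcrb* and 1.59 for *Uqcrfs1*, both called, and 0.72 for *Uqcrc2*, which was no longer called (limma adjusted p = 0.13).

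The other core protein, *Uqcrc1*, which forms a dimer with *Uqcrc2*, was at 130, 78.9 and 33.8 cpm in floxed and 48.2, 51.2 and 15.4 cpm in H3atKO samples. The groups overlapped, and the log2 value was -1.01 ± 0.62 (SE, limma adjusted p = 0.24). The lowest value of the complex belonged to *Uqcr11*, a small membrane subunit, with 2631, 567 and 99 counts in floxed and 39, 29 and 2 counts in H3atKO samples. The floxed pools alone differed 24.0-fold for this gene on the cpm scale, more than for any other member. Its log2 value of -3.99 ± 1.89 (SE) was not called by limma (adjusted p = 0.14), but was called lower by edgeR (adjusted p = 0.037) and with the replicate block (limma, -4.42, adjusted p = 0.00304), also after GC correction (-1.90, adjusted p = 0.026). *Uqcrc1* was also called lower with the block (limma, -1.06, adjusted p = 0.011), but at -0.18 not with block and GC correction. *Uqcrq*, *Uqcrh* and *Uqcr10* had log2 values of -0.16, -0.35 and -0.65, none called, and the first and the last of these were positive after GC correction, at 0.09 and 0.35.

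*Uqcrb* and *Uqcr11* differed in base composition, with 40.4% and 59.8% G and C in the longest transcript. The first 150 coding bases of each, from the GENCODE transcripts (GRCm38, *Uqcrb* on the minus strand at chr13:66900617-66905378 and *Uqcr11* on the minus strand at chr10:80402997-80406830), are shown with G and C in capitals to make the contrast visible:
Uqcrb: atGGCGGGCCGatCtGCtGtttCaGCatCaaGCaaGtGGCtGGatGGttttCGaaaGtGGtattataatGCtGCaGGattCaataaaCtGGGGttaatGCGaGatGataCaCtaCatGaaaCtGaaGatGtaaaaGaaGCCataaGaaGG
Uqcr11: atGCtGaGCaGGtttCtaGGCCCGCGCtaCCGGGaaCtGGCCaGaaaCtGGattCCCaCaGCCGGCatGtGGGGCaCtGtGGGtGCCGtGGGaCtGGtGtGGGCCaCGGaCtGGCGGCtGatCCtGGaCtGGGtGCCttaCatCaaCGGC
G and C made up 42.7% of the first stretch and 64.0% of the second.

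In complex IV, 3 of 14 members were called higher in H3atKO samples and 0 lower, beside 9.42% and 7.07% of all genes tested. *Cox5a*, a matrix-side subunit, was at 54.0, 56.9 and 97.6 cpm in floxed and 269, 300 and 188 cpm in H3atKO samples, a log2 fold change of 1.89 ± 0.32 (SE, limma adjusted p = 0.021). *Cox6c* was at 130, 108 and 151 cpm against 306, 416 and 388 cpm (log2 1.51 ± 0.24 SE, limma adjusted p = 0.019). *Cox7b*, also a small subunit with a single membrane span, was at 105, 88.9 and 126 cpm against 280, 330 and 265 cpm (log2 1.46 ± 0.24 SE, limma adjusted p = 0.019). No floxed sample reached the lowest H3atKO sample in any of them after TMM scaling. With library sizes alone *Cox5a* stayed called (log2 1.04, limma adjusted p = 0.049). *Cox6c* (0.66, limma adjusted p = 0.058) and *Cox7b* (0.61, limma adjusted p = 0.10) were then not called. After GC correction, *Cox6c* remained called at 1.23, whereas *Cox5a* (0.96, limma adjusted p = 0.10) and *Cox7b* (0.57, limma adjusted p = 0.19) were not. *Cox7c*, at 5.00 to 6.68 cpm in floxed and 11.5 to 18.3 cpm in H3atKO samples, lay at the threshold (log2 1.16 ± 0.34 SE, limma adjusted p = 0.053) and had a GC-corrected value of 0.05.

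*Cox4i1*, the largest nuclear subunit and the partner that joins the catalytic core early in assembly with *Cox5a*, ran the other way. It was at 356, 201 and 71.7 cpm in floxed and 71.4, 67.0 and 14.7 cpm in H3atKO samples. The highest H3atKO sample almost met floxed replicate 3, and the floxed samples themselves spanned 4.96-fold. The log2 value of -1.999 ± 0.76 (SE) was not called (limma adjusted p = 0.088), was called lower with the block (limma, -2.04, adjusted p = 0.00297), and was -0.07 after GC correction. The ratio of *Cox5a* to *Cox4i1* counts was 0.152, 0.283 and 1.36 in floxed and 3.77, 4.48 and 12.8 in H3atKO samples. *Cox5b*, the zinc-binding subunit, had overlapping groups, from 35.2 to 52.2 cpm in floxed and 16.1 to 58.0 cpm in H3atKO samples (log2 -0.17 ± 0.48 SE, limma adjusted p = 0.80). The ratio of *Cox5a* to *Cox5b* counts was 1.03, 1.297 and 2.77 against 4.64, 5.51 and 11.7.

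Over the longest transcript, *Cox5a* held 41.6% and *Cox4i1* 58.0% G and C, while over the coding part they held 52.3% and 53.5%. The first 150 coding bases (GENCODE, GRCm38, both on the plus strand, *Cox5a* at chr9:57521274-57532426 and *Cox4i1* at chr8:120668222-120674207) are shown with G and C in capitals, because here the start of the coding part, at 66.7% and 54.0%, orders the pair the opposite way to the whole transcript:
Cox5a: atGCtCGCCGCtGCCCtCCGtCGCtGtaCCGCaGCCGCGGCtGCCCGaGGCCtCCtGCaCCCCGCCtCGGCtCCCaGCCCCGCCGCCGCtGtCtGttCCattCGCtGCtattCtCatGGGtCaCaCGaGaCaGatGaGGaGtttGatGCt
Cox4i1: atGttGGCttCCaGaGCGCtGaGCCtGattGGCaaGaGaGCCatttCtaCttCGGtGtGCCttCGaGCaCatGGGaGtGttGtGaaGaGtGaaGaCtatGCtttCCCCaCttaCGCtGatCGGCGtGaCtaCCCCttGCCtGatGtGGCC

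Several complex IV subunits exist as a widely expressed form and a tissue-restricted form. The restricted forms were rare. *Cox4i2*, known from lung, had 98, 64 and 20 counts in floxed and 8, 4 and 0 counts in H3atKO samples. *Cox6a2*, the heart and skeletal muscle form, had 146, 48 and 31 counts against 2, 21 and 0. *Cox6b2*, the testis form, had 54, 27 and 10 counts against 1, 1 and 0. None was called by limma (adjusted p = 0.10, 0.11 and 0.072). Because all passed the filter through floxed samples alone, the lower calls of *Cox6b2* by edgeR and of *Cox4i2* and *Cox6b2* with the block carry no weight. A floor of 3 counts corresponded to 0.0852 to 0.126 cpm, depending on the sample, and every H3atKO value of *Cox6b2* lay under it. None of 12 skeletal muscle markers was called or at 0 in every sample, and they summed to 1287, 711 and 2949 cpm in floxed and 436, 3753 and 5.31 cpm in H3atKO samples. The muscle sum and the *Cox6a2* counts had the same order among the H3atKO samples but not among the floxed samples, where replicate 3 had the highest sum and the fewest counts. The part of muscle RNA in this difference was not tested.

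The widely expressed partners were far more abundant and were not called by limma on uncorrected values. *Cox6a1* was at 162, 99.5 and 45.1 cpm in floxed and 62.8, 51.0 and 16.4 cpm in H3atKO samples (log2 -1.21 ± 0.62 SE, limma adjusted p = 0.17). Its longest transcript held 62.7% G and C, and its value turned to 1.45 after GC correction, which was called higher (limma adjusted p = 0.036), whereas the block alone called it lower (limma, -1.25, adjusted p = 0.00469). The direction for *Cox6a1* therefore depended on the correction. *Cox6b1* had a log2 value of 0.26, *Cox7a2* of -0.49, the supercomplex factor *Cox7a2l* of -0.70 and *Cox8a* of -1.56. None of them was called, with limma adjusted p-values from 0.089 to 0.56. *Cox6b1* was 0.92 and called higher with GC and length correction (limma adjusted p = 0.033). *Cox8a* was called lower with the block (limma, -1.57, adjusted p = 0.00473) and was 0.45 after GC correction. The forms set aside by the choice of genes, *Cox8b* and *Cox7a1*, had log2 values of 0.70 and -0.28 (limma adjusted p = 0.46 and 0.78). After GC correction *Cox8b* was 2.18 and called higher (limma adjusted p = 0.039) and *Cox7a1* was 1.07 and not called (limma adjusted p = 0.18). The 8 brown and beige adipocyte markers, of which these 2 are part, summed to 39.9 to 96.7 cpm in floxed and 340 to 1172 cpm in H3atKO samples. Of these 8 markers, 3 were called higher and 0 lower, beside 9.42% and 7.07% of all genes tested.

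**Figure D2:**
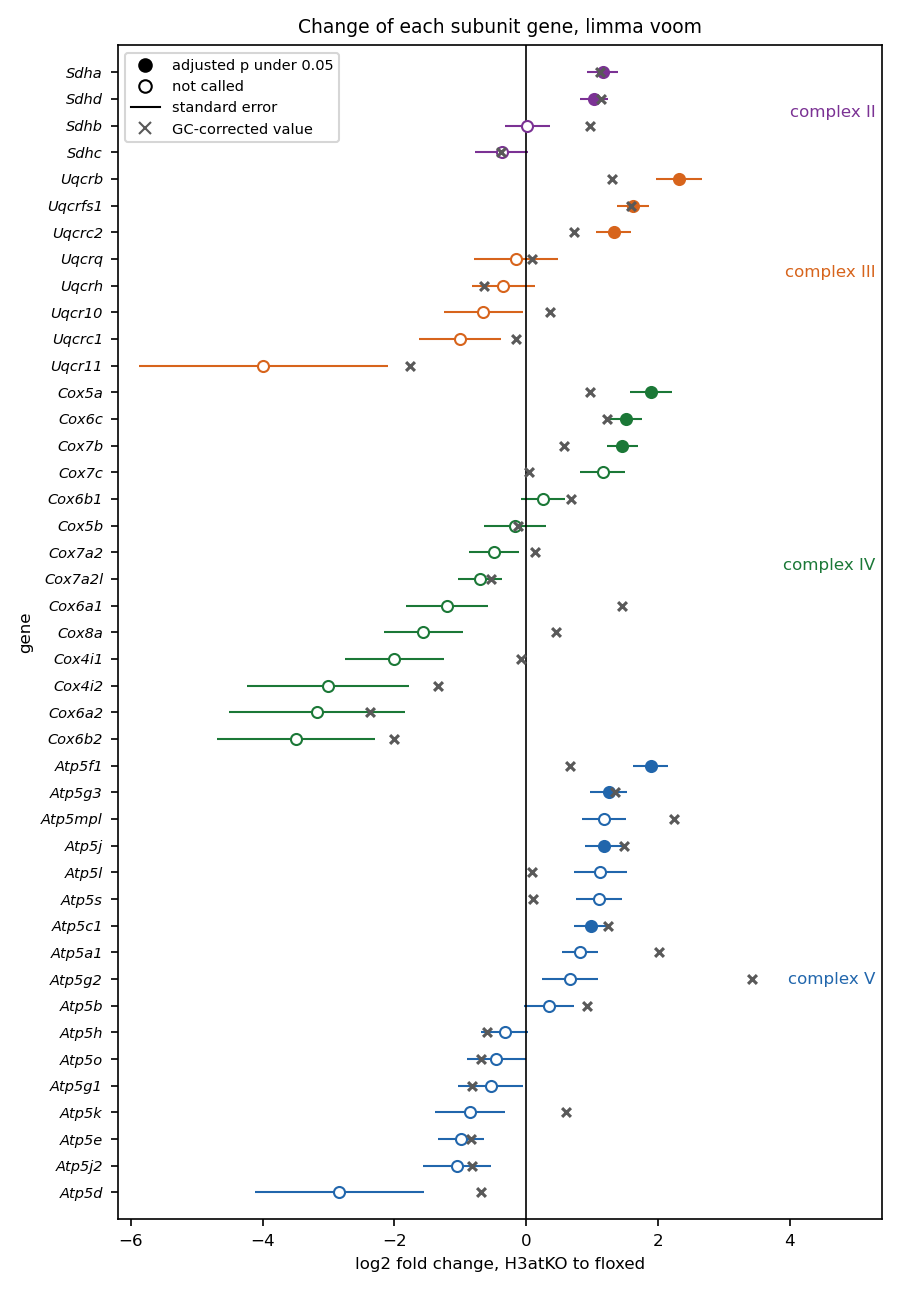
Log2 fold change of each member, H3atKO to floxed (horizontal axis), from limma voom, coloured by complex, with bars of 1 standard error. Filled circles have an adjusted p under 0.05, open circles do not, and crosses give the GC-corrected value. The 12 filled circles lie between 0.98 and 2.31, and the values below -2.5, for Uqcr11, Cox6b2, Cox6a2, Cox4i2 and Atp5d, carry the widest bars.

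In complex V, 4 of 17 members were called higher in H3atKO samples and 0 lower, beside 9.42% and 7.07% of all genes tested. *Atp5f1*, subunit b of the peripheral stalk, was at 126, 139 and 190 cpm in floxed and 451, 619 and 608 cpm in H3atKO samples, with the smallest adjusted p of any member (log2 1.89 ± 0.26 SE, limma adjusted p = 0.013). *Atp5j*, coupling factor 6 of the same stalk, was at 101, 127 and 153 cpm against 216, 379 and 281 cpm (log2 1.18 ± 0.29 SE, limma adjusted p = 0.039). *Atp5c1*, the gamma subunit of the central stalk, was at 246, 267 and 330 cpm against 500, 702 and 478 cpm (log2 0.98 ± 0.26 SE, limma adjusted p = 0.043). In these 3 genes the groups were apart after TMM scaling, with the lowest H3atKO sample above the highest floxed sample. With library sizes alone *Atp5f1* (log2 1.04, limma adjusted p = 0.017) was the only complex V member called higher. GC-corrected values were 1.48 for *Atp5j* and 1.25 for *Atp5c1*, both called, and 0.67 for *Atp5f1*, which was not (limma adjusted p = 0.12). The correction used the longest transcript of *Atp5f1*, with 37.0% G and C. Its principal transcript, the main coding form in the annotation, held 49.1%.

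The rotor ring of complex V is built from copies of 1 protein, subunit c, whose mature form is encoded by *Atp5g1*, *Atp5g2* and *Atp5g3*. *Atp5g3* carried nearly all of the counts. It was at 149, 165 and 173 cpm in floxed and 398, 513 and 280 cpm in H3atKO samples (log2 1.25 ± 0.28 SE, limma adjusted p = 0.033; 1.34 after GC correction, also called). *Atp5g1* had 111 to 234 counts in floxed and 24 to 77 counts in H3atKO samples, with overlapping groups and a log2 value of -0.54 (limma adjusted p = 0.41). *Atp5g2* had 61 to 104 counts against 47 to 70 counts and a log2 value of 0.67 (limma adjusted p = 0.26). Compared by longest transcript it was the GC-richest member, at 63.3%, but its principal transcript held 56.6%, less than that of *Atp5d* (59.3%). The log2 value of *Atp5g2*, corrected by its longest transcript, was 3.42 and not called, and 3.44 and called higher with the block added (limma adjusted p = 0.0145). Of the windows of 50 bases in its principal transcript, 87.4% occur in other genes, which makes these few counts an uncertain measure of its level.

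The catalytic head of complex V is formed by alternating alpha and beta subunits. *Atp5a1* (alpha) was at 587, 448 and 414 cpm in floxed and 857, 1069 and 651 cpm in H3atKO samples. The groups were apart, and the log2 value of 0.82 ± 0.28 (SE) was not called (limma adjusted p = 0.070) but was called with the block (limma, adjusted p = 0.025) and after GC correction (2.01, adjusted p = 0.010). *Atp5b* (beta), the member with the highest level per kilobase in the floxed samples, was at 1159, 1099 and 703 cpm against 1465, 1679 and 749 cpm, with overlapping groups and a log2 value of 0.34 ± 0.38 (SE, limma adjusted p = 0.50). It was 0.92 after GC correction and not called, and 0.91 and called higher with the block added (limma adjusted p = 0.032). At the other end, *Atp5d*, the delta subunit of the central stalk, had 3675, 1020 and 228 counts in floxed and 124, 87 and 19 counts in H3atKO samples. Its floxed pools differed 14.6-fold on the cpm scale, and the log2 value of -2.83 ± 1.28 (SE) was not called by limma (adjusted p = 0.13), was called lower by edgeR (adjusted p = 0.039) and with the block (limma, adjusted p = 0.00355), and was -0.68 after GC correction. *Atp5e* (epsilon), which sits beside *Atp5d*, was at 29.7 to 44.2 cpm in floxed and 11.4 to 24.4 cpm in H3atKO samples, with groups apart and a log2 value of -0.99 ± 0.35 (SE, limma adjusted p = 0.077). The block alone called *Atp5e* lower (limma, adjusted p = 0.00988), and *Atp5e* and *Uqcr11* were the members called lower with block and GC correction together (limma, *Atp5e* -0.84, adjusted p = 0.033).

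The remaining complex V members were *Atp5mpl*, *Atp5l*, *Atp5s*, *Atp5h*, *Atp5o*, *Atp5k* and *Atp5j2*. The small proteolipid *Atp5mpl*, *Atp5l* (subunit g) and *Atp5s* (coupling factor B) had log2 values of 1.18, 1.12 and 1.11. *Atp5s* was included by its symbol and is named *Dmac2l* in RefSeq. *Atp5h*, *Atp5o*, *Atp5k* and *Atp5j2* had values from -0.32 to -1.04. None of these remaining members was called by limma, with adjusted p-values of 0.051 and above. With the block, *Atp5mpl*, *Atp5l*, *Atp5s* and also *Cox7c* were called higher and *Atp5k* and *Atp5j2* lower (limma, adjusted p from 0.00589 to 0.0302). After GC correction *Atp5mpl* was 2.24 and was called (limma adjusted p = 0.032), while *Atp5l* and *Atp5s* were 0.085 and 0.10 and were called neither then nor with the block added.

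The members with the highest and the lowest value of complex V are shown in the same way as above (GENCODE, GRCm38, *Atp5f1* on the minus strand at chr3:105942698-105960099 and *Atp5d* on the plus strand at chr10:80138632-80145818), with G and C in capitals. Their longest transcripts held 37.0% and 59.3% G and C, their coding parts 47.1% and 61.9%, and the stretches printed 61.3% and 68.7%:
Atp5f1: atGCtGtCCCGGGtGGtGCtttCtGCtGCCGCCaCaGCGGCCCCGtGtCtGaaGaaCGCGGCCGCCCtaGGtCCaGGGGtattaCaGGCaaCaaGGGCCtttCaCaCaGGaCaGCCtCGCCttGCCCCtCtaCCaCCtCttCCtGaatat
Atp5d: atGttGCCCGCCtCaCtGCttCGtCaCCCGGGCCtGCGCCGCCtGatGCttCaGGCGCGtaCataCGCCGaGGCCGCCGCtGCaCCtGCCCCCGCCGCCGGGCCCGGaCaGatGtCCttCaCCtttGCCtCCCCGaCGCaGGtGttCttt
The ratio of *Atp5f1* to *Atp5d* counts was 1.57, 5.67 and 34.3 in the floxed samples and 88.3, 140 and 506 in the H3atKO samples. That of *Uqcrb* to *Uqcr11* was 1.34, 6.74 and 71.9 against 260, 402 and 4787, of which the last rests on 2 *Uqcr11* counts and has an exact 95% binomial interval, for counting error only, of 1325 to 39529. Within 1 library these ratios do not depend on scaling, and they ranged over more than an order of magnitude among the floxed pools.

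**Figure D3:**
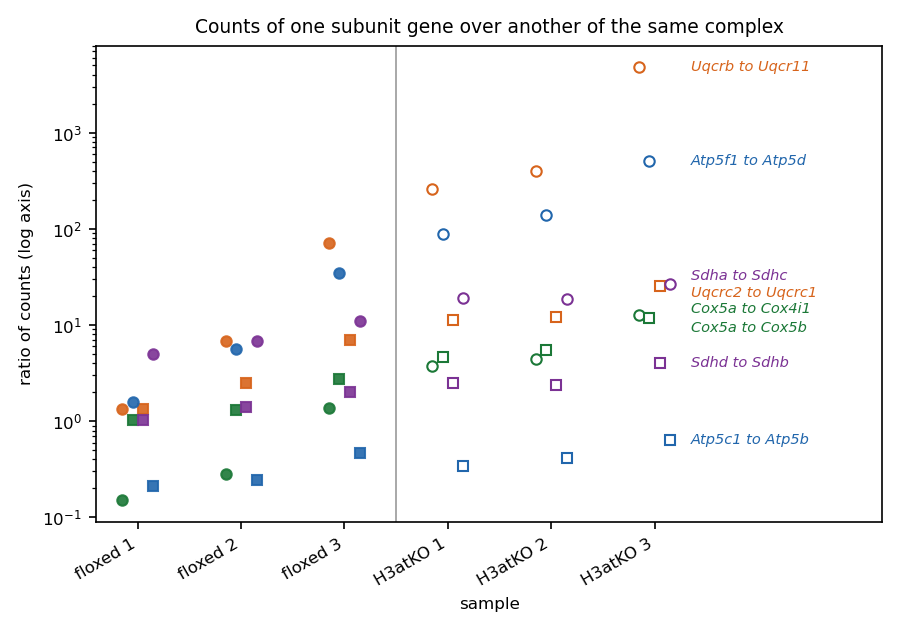
Ratio of the counts of 1 subunit gene to those of another of the same complex (vertical log axis) in each sample (horizontal axis, points set apart sideways for clarity), filled for floxed and open for H3atKO. All ratios are lowest in floxed replicate 1 and highest in H3atKO replicate 3, from 1.34 to 4787 for Uqcrb to Uqcr11 (the latter over 2 counts, with a counting interval of 1325 to 39529) and from 0.212 to 0.639 for Atp5c1 to Atp5b.

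Across the 43 members, the log2 fold change was lower at higher GC content of the longest transcript (Spearman's rho = -0.667). Over the 14922 genes tested with a known GC content it was -0.706, and across the members of complexes III, IV and V it was -0.857 (n = 8), -0.798 (n = 14) and -0.316 (n = 17). These correlations are across genes measured in the same 6 libraries, which are not independent replicates. In complex V the coefficient was -0.708 with the GC content of the coding part. The 22 members at or under the median GC content of 50.02% had a median log2 value of 1.12, and 10 of them were called higher. The share of 9.42% over all genes tested covers every GC content. The share among genes of like GC content was not computed, so these 10 calls are not shown to be particular to the members. The 21 members over it had a median of -0.65, and 2 of them, *Atp5j* and *Atp5c1*, were called higher. After GC correction the 2 medians were 0.09 and 0.45, and rho across the members was -0.01. The correction removes the GC trend over all genes by design, so the loss of the correlation is no independent result. Any difference between genotypes that follows GC content is removed with it. For some members the longest transcript, used in the correction, differed in GC content from the principal one. It held 41.6% against 49.0% in *Cox5a*, 38.4% against 46.7% in *Cox7c* and 39.8% against 47.8% in *Atp5l*. A correction on principal transcripts was not run, so corrected values of such members depend on the transcript chosen. By sample, the GC-richer members minus the GC-poorer members, as median deviations from the mean of the 6 samples on the log2 scale, gave 1.67, 0.91 and 0.11 in floxed and -0.35, -0.55 and -1.32 in H3atKO samples. All floxed samples were above all H3atKO samples in this measure, and the step from floxed replicate 1 to floxed replicate 3 was about as large as that from floxed replicate 3 to H3atKO replicate 3.

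**Figure D4:**
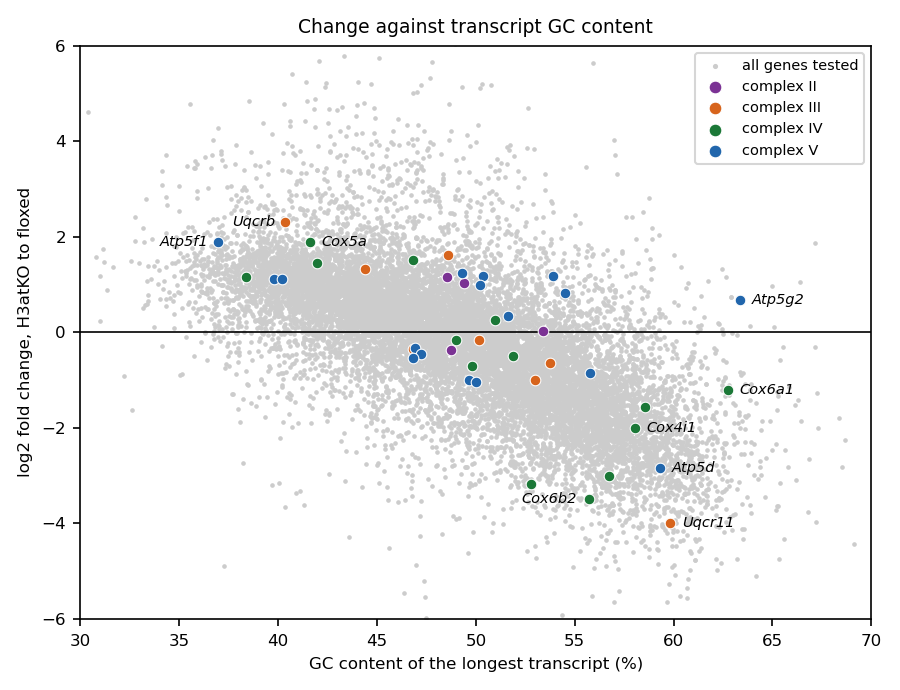
GC content of the longest transcript in percent (horizontal axis) against the log2 fold change, H3atKO to floxed, from limma voom (vertical axis), for the members coloured by complex over all genes tested in grey. Points outside 30% to 70% GC or beyond 6 log2 units are not drawn. Members and other genes slope downward together (rho = -0.667 and -0.706), and Atp5g2 lies above most genes of its GC content.

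The members had short transcripts. Their longest transcripts had a median of 1001 bases and their coding parts a median of 387 bases, against 3273 and 1374 over all genes tested. Their median GC content, 50.02%, was close to the 49.2% of all genes. Many also share sequence with other annotated genes. Of the 43, 26 shared at least 1 window of 50 bases in the principal transcript with a transcript of another gene on either strand, and 19 with a pseudogene. For 10 members the shared windows were over 20% of the transcript. Some shared with a protein-coding gene alone, such as *Uqcrc2* (24.8%, *Pdzd9*), *Cox5b* (25.9%, *Gm11273*) and *Cox4i1* (14.7%, *Emc8*). The largest shares were 87.4% in *Atp5g2*, 84.8% in *Atp5l*, 53.0% in *Cox7c*, 50.3% in *Atp5o* and 47.9% in *Atp5h*, followed by *Uqcrb* (43.4%), *Atp5f1* (38.7%) and *Cox5a* (32.0%). Reads that align to several places were not assigned to any gene, so the levels of members with copies elsewhere are uncertain. Windows shared by genes that overlap at the same place do not make reads align to several places, but such reads can be tallied as ambiguous and left uncounted. The ambiguous tally was 305512 to 496349 reads in floxed and 152364 to 240582 in H3atKO samples. The part of the members in it was not tested. The kinds of sharing were not told apart. *Sdha*, *Sdhd*, *Uqcrfs1* and *Atp5g3*, called higher in each of these 4 fits, shared none. *Atp5j* overlaps *Gabpa*, with 16.3% of its windows in common.

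In proximal promoters, 33 of the 43 members were matched to a RefSeq window (GRCm38.p6) from 250 bases before to 50 bases after the start of the gene. In these windows 4 motifs of factors known for respiratory genes were looked for on both strands. Members without a window were not searched, among them *Uqcrb*, *Uqcrc2* and *Cox6c*, which were called higher. The NRF1 motif GCGCATGCG, part of a palindrome and so often matched on both strands at once, occurred in 6 of the 33 (18.2%) and in 2.75% of 16348 genes. The ETS motif CCGGAAGT, as bound by GABPA, occurred in 4 (12.1%) and in 5.98% of genes, the ERR motif TCAAGGTCA in 2 (6.06%) and in 0.379%, and the YY1 motif AAGATGGCG in 2 (6.06%) and in 2.26%. No motif contains the letters of another, and *Uqcr11* held both an NRF1 and an ETS match. NRF1 matches lay in *Atp5g2*, *Atp5k*, *Atp5l*, *Cox6a1*, *Uqcr11* and *Uqcrc1*, none of which was called by limma before correction. ERR matches lay in *Sdhd* and *Atp5g3*, both called higher. ETS matches lay in *Uqcr11*, *Uqcrh*, *Cox8a* and *Atp5h*, and YY1 matches in *Atp5j* and *Atp5j2*. One promoter for each of the first 3 motifs is shown, with the match in capitals, as examples of members called and not called (*Uqcrc1*, chr9:108936398-108936697, plus strand; *Sdhd*, chr9:50603800-50604099, minus strand; *Cox8a*, chr19:7217567-7217866, minus strand, with 2 ETS matches):
Uqcrc1: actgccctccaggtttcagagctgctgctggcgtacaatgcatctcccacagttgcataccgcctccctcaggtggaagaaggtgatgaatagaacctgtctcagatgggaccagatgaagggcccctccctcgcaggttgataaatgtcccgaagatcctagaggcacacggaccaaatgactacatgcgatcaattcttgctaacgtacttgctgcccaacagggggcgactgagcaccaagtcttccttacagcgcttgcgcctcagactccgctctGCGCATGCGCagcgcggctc
Sdhd: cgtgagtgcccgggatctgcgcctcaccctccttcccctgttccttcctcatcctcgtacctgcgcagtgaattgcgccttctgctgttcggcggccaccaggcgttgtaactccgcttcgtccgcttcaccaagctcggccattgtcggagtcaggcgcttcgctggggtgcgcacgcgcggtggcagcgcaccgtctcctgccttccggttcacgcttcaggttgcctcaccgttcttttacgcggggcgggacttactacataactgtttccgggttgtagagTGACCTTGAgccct
Cox8a: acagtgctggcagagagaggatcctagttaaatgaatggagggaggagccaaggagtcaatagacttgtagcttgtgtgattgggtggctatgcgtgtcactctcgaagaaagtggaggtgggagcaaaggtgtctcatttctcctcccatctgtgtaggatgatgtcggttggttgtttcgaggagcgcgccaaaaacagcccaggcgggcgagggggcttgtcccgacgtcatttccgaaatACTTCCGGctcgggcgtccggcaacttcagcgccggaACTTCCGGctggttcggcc
A match describes the letters in this window and is no measure of binding.

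The factors themselves were partly higher in H3atKO samples. Of 11 transcription factors and coactivators of respiratory genes, 4 were called higher and 0 lower, with a median log2 value of 0.71, and with the block 6 were higher and 2 lower (all genes, 9.42% and 7.07%, or 24.8% and 28.7% with the block). *Esrrg*, an estrogen-related receptor, had 39, 52 and 23 counts in floxed and 83, 115 and 106 counts in H3atKO samples (log2 2.56, limma adjusted p = 0.027). *Tfam*, which packages and transcribes mitochondrial DNA, *Yy1* and *Gabpa* had log2 values of 1.31, 1.19 and 1.16 (limma adjusted p = 0.027, 0.034 and 0.041), and after GC correction *Tfam* and *Yy1* were called and *Esrrg* and *Gabpa* were not. The coactivator *Ppargc1a* had 300, 687 and 699 counts against 696, 752 and 465 (log2 1.39, limma adjusted p = 0.055). *Nrf1* and *Esrra* had log2 values of -0.39 and -1.79, with limma adjusted p-values of 0.41 and 0.26.

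Assembly factors put the subunits and cofactors together without being part of the final complex. Of 35 tested, 10 were called higher and 0 lower, beside 9.42% and 7.07% of all genes, with a median log2 value of 0.40, and *Pet117* was listed at 0 counts in every sample. The 6 called with the largest changes were *Cox20*, a chaperone of the *mt-Co2* protein (2.22, limma adjusted p = 0.023), *Coa5* (1.93, adjusted p = 0.0095), *Tmem70*, which aids complex V assembly (1.88, adjusted p = 0.015), *Lyrm7*, the chaperone that brings *Uqcrfs1* into complex III (1.82, adjusted p = 0.021), *Cox11*, a copper chaperone (1.82, adjusted p = 0.029), and *Sdhaf3*, which acts on *Sdhb* (1.81, adjusted p = 0.030). All of these but *Sdhaf3* were also called after GC correction. With the block 13 of the list were higher and 5 lower, beside 24.8% and 28.7% of all genes, and with the GC correction 8 and 0, beside 5.59% and 3.1%.

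Among 13 partners outside the symbols chosen, 9 passed the filter, of which 5 were called higher and 0 lower, or 5 and 2 with the block (all genes, 9.42% and 7.07%, or 24.8% and 28.7%). *Cycs*, the somatic cytochrome c that carries electrons from complex III to complex IV, had 220, 156 and 327 counts in floxed and 1296, 1223 and 1580 counts in H3atKO samples, a log2 fold change of 3.71 (limma adjusted p = 0.0087), above that of any subunit. Shared sequence was looked for only in the genes chosen by symbol, so the effect of copies on the *Cycs* counts was not tested. *Cyc1*, the cytochrome c1 of complex III, had 4100, 2269 and 828 counts against 681, 491 and 97, with a log2 value of -1.43 (limma adjusted p = 0.17) that was 1.03 after GC correction. The mitochondrially encoded *mt-Cytb* of complex III and *mt-Co1* of complex IV had log2 fold changes of 2.66 and 2.58 (limma adjusted p = 0.014 and 0.015). Both stayed called after GC correction, at 1.57 and 1.54. The subunits *mt-Co2*, *mt-Co3*, *mt-Atp6* and *mt-Atp8* had 0 or 1 count in each sample and gave no value. Reads aligned to more than 1 place were not counted, and whether such reads came from these genes was not tested. These counts therefore do not show that the RNA was absent. *Usmg5*, a small complex V protein, and *Ndufa4*, now counted with complex IV, rose by 2.10 and 1.07 on the log2 scale (limma adjusted p = 0.015 and 0.031), and *Ndufa4* was at 0.06 after GC correction. The complex V inhibitor *Atpif1* had a log2 value of -0.87 (limma adjusted p = 0.079).

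The nuclear subunits of complex I, compared here because they form the other large set of respiratory genes, were counted in the same way. Of 36 tested, 10 were called higher and 0 lower, beside 9.42% and 7.07% of all genes, with a median log2 value of 0.11, from 2.06 for *Ndufb6* (limma adjusted p = 0.012) to -3.46 for *Ndufa13* (limma adjusted p = 0.11). With the block 12 were higher and 14 lower, beside 24.8% and 28.7%, and with the GC correction 12 and 0, beside 5.59% and 3.1%. The difference between complex I and complexes II to V was not tested.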

How the data were processed

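Polyadenylated RNA of IngWAT from floxed and H3atKO mice was measured by RNA-seq in 3 pools a genotype. According to the submitters' notes and the study's methods, the authors trimmed the stranded single-end reads with cutadapt (1.3), aligned them to GRCm38 with STAR (2.4.2a) and counted uniquely placed reads per Ensembl gene with htseq-count (0.6.1). The deposited values are raw counts. The 5 closing tally lines of each file (unassigned or multiply aligned reads) were left out of library sizes and tests.

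Groups and replicate numbers came from the labels. Of 46517 gene IDs, 46005 were matched to GENCODE M21 symbols. The main test followed the study: genes reaching 1 cpm in any sample, TMM factors (edgeR 4.0.16), voom and limma (3.58.1, R 4.3.3) on genotype. Benjamini-Hochberg adjustment over all 14967 genes tested and a two-sided threshold of 0.05 were added here. Factors were 1.30 to 1.37 in floxed and 0.663 to 0.921 in H3atKO samples. cpm values use these scaled library sizes, and ± gives the standard error of the fit. The GC correction removed from each sample a loess curve (span 0.3) of log2 values on the GC content of the longest transcript. Alternatives were edgeR's quasi-likelihood test, DESeq2 (1.42.0), other scaling and filters, sample weights, leaving out each pool, and the replicate number as a block. Deviations of same-numbered samples from their group means correlated at 0.510, 0.389 and 0.264 over genes for numbers 1, 2 and 3, so the numbers were taken as pairs in the block, although the labels do not say what they share. In both groups the correlation of sample deviations with GC content fell from number 1 to number 3. The part of this common order in the pairing was not tested. Calls with the block rest on a pairing chosen from these same data. The fits were tested on simulated data. The simulated counts had the same dispersion for every gene and no GC trend, pair effect or shift in composition. How the fits behave under those features of the real libraries was not tested. Single levels can be compared between genes only per kilobase of transcript, and counting error sets a floor of 3 counts a sample.

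Members and gene lists were chosen with earlier results of these data known. The genes described were all Sdh genes, core or catalytic subunits, isoform families, members called by limma, the 2 highest and 2 lowest of complexes III to V and, from each list, up to 6 genes called with the largest change. Others, and the pairs whose sequences or ratios are shown, were chosen after their values were seen.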

Additional observations from a re-analysis of the deposited data

How the results depend on the processing

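Precision is limited by 3 pools a group, of which the floxed pools differ widely for GC-rich members, and by transcripts with copies. The cause of the changes that follow was not tested. Over all genes, 1410 higher and 1058 lower calls became 2935 and 3465 with DESeq2, 4003 and 4440 with sample weights, 3717 and 4290 with the replicate block, 837 and 464 with the GC correction, 852 and 472 with GC and length correction, and 306 and 5667 with library sizes alone. Lower calls were 2749 with edgeR and 1864 with at least 10 counts in every sample. Among the members, lower calls were 0 in the first fit, 6 with DESeq2 (1 in complex III, 4 in IV, 1 in V), 8 with weights (1, 5 and 2), 11 with the block (2, 5 and 4), 3 with edgeR (1 in each), and 1, in complex IV, with no filter beyond 1 count. They were 2 with the block and GC correction and 2 with the block and GC and length correction, 1 each in complexes III and V. Library sizes alone gave 14 lower calls (1, 1, 8 and 4 in complexes II to V) and 3 higher (0, 1, 1 and 1). Complex V had 8 higher calls with DESeq2, weights and the block, and 7 with the block and either correction. The median of complex II was 1.04 with the GC correction, also with the block, and 1.11 with GC and length correction, 1.11 with the block added. That of complex IV was then 0.22 and 0.23. With library sizes alone the medians of complexes II to V were -0.33, -1.12, -1.46 and -0.18. On uncorrected values the block changed the limma call of 16 members, 5 to higher and 11 to lower, and of no other member. Added to the GC correction, it also called *Atp5b* and *Atp5g2* higher and *Uqcr11* and *Atp5e* lower. GC and length correction also called *Cox6b1* higher. With at least 10 counts in every sample, the complex IV median was -0.28 over 11 members.

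Leaving out 1 pool gave 1 to 2729 higher and 0 to 3828 lower calls over all genes, and 0 to 16 and 0 to 9 among the members. Higher calls ran from 0 to 2 in complex II, 0 to 3 in III, 0 to 4 in IV and 0 to 7 in V, and lower calls from 0 to 2 in III, 0 to 5 in IV and 0 to 2 in V. Medians ran from 0.33 to 0.68, -0.60 to 0.27, -0.86 to -0.25 and 0.47 to 0.72.

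Signs of single members changed as follows. With the GC correction, *Uqcr10* was 0.35, *Uqcrq* 0.089, *Cox6a1* 1.45, *Cox7a2* 0.14, *Cox8a* 0.45 and *Atp5k* 0.60. With the block added they were 0.29, 0.0315, 1.499, 0.14, 0.51 and 0.64. With GC and length correction they were 0.51, 0.22, 1.303, 0.34, 0.36 and 0.64, and *Cox5b* was 0.095. With the block added to that they were 0.44, 0.16, 1.34, 0.34, 0.41 and 0.67, and *Cox5b* was 0.11. With library sizes alone, *Sdhb* was -0.84, *Cox6b1* -0.59, *Atp5a1* -0.033, *Atp5b* -0.50 and *Atp5g2* -0.18. *Sdhb* was also -0.093 under a minimum of 10 counts per sample and -0.090 without a filter, *Cox5b* 0.032 with DESeq2 and 0.044 with weights, and *Uqcrq* 0.38 with weights. Without 1 pool, *Sdhb* ran from -0.24 to 0.28, *Uqcrh* from -0.72 to 0.24, *Uqcrq* from -0.52 to 0.42, *Cox5b* from -0.53 to 0.38, *Atp5h* from -0.55 to 0.070 and *Atp5o* from -0.78 to 0.026. Leaving out genes of the mitochondrial genome or using RLE size factors changed no member's sign.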
